A study of Mus musculus with 5 samples.

Results

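The connecting tubule of healthy mouse kidney was described here from the barcodes that the authors' annotation labels CNT. The label was given to 514 of the 11395 barcodes of the healthy annotation, and the whole series holds 17542 barcodes. Of the 514, 97 came from Drop-seq, 161 from sNucDrop-seq, 117 from DroNc-seq and 139 from the 10x Chromium system, all methods that count each captured RNA molecule once by a unique molecular identifier (UMI). The study set these methods side by side on mouse kidney, Drop-seq with whole cells and the 3 others with isolated nuclei. The strain in the protocol is C57BL/6, and all 4 libraries are labelled healthy. Cells were freed with Liberase and DNase I and sorted on light scatter alone, so no gate picked a tubule segment, and nuclei were released by detergent lysis and a Dounce homogenizer. A nucleus library from an obstructed kidney was not analysed here. The neighbouring segments were the barcodes labelled DCT (distal convoluted tubule; 146, 131, 133 and 185 per library, 595 in all) and those labelled CD-PC (principal cells of the collecting duct; 37, 72, 50 and 116, 275 in all). Where 4 values stand together, they are in the order Drop-seq, sNucDrop-seq, DroNc-seq and 10x.

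The connecting tubule joins the distal convoluted tubule to the collecting duct. It is known as a site of regulated calcium reabsorption, in which calcium enters through an apical channel, is carried across the cell by calbindins and leaves through a sodium/calcium exchanger and a calcium pump at the basolateral side. It also reabsorbs sodium through the epithelial sodium channel under aldosterone, and it makes tissue kallikrein, a protease that is released into the tubular fluid.

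The 4 genes that mark the label are Slc8a1, which encodes the sodium/calcium exchanger NCX1, Calb1, which encodes calbindin-D28k, S100g, which encodes calbindin-D9k, and Klk1, which encodes tissue kallikrein. In RefSeq on GRCm38.p6 (mm10) Slc8a1 lies at chr17:81373105-81738387, Calb1 at chr4:15881264-15906709, Klk1 at chr7:44225360-44229622 and S100g at chrX:162961992-162964599. RefSeq promoters, from 250 bases before to 50 bases after the annotated gene start, were at hand for 3 of the 4. They are printed here in the direction of the gene because these genes are markers of the same label. Each was searched on both strands for TATAAA, the core of the TATA box, and for AGATAA, a core bound by GATA factors, and a match is in capitals. The Slc8a1 window (chr17:81738338-81738637, minus strand) holds 1 AGATAA, and the Klk1 window (chr7:44225110-44225409, plus strand) holds neither. The S100g window (chrX:162964550-162964849, minus strand) holds 1 TATAAA, which begins at the annotated gene start and not before it.
Slc8a1: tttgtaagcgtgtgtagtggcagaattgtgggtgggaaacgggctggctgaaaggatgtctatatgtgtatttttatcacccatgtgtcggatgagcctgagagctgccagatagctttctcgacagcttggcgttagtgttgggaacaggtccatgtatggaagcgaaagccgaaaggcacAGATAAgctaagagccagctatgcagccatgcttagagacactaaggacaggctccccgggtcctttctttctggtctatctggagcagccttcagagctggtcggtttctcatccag
S100g: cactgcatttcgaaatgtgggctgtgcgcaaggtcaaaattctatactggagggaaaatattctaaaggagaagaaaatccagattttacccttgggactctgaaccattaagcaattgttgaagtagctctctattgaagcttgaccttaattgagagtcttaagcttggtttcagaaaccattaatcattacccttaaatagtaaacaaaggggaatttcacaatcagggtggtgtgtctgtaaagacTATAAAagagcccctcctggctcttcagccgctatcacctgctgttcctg
Klk1: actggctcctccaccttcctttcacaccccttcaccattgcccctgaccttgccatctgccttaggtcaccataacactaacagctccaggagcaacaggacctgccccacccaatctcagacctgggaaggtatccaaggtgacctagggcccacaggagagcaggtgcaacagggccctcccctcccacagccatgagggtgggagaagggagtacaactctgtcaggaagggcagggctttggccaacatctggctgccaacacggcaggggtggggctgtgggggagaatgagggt
Of 32851 mouse promoters of the same length, 13.6% hold TATAAA and 11.2% hold AGATAA on either strand, so such matches are common and are given as a description only.

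The connecting tubule sums held 196422, 251363, 291965 and 192646 UMIs, with 1620, 1272, 2040 and 1319 UMIs in the median barcode. Median UMIs were 1937, 1227, 1680 and 1363 in DCT and 1740, 1082, 1795 and 851 in CD-PC. Mitochondrial transcripts made up 24.9% of the connecting tubule UMIs of the cells, against 0.203%, 0.0832% and 0.0322% in the nuclei. Each method was 1 library, so there are no replicates, the 4 libraries are not replicates of one another, and all intervals cover counting error only. The labels are the authors' own and describe these same counts, so a difference between labels is a description and has no test. The libraries also differ in sex-linked transcripts: Xist, the RNA that silences an X chromosome in females, stood at 0, 0, 1243 and 1173 CPM (counts scaled to 1000000 UMIs of the sum) in the connecting tubule, and the Y-linked Eif2s3y at 102, 135, 0 and 0 CPM. Drop-seq and sNucDrop-seq thus share a sex-linked pattern, as do DroNc-seq and 10x, and between these pairs method and sex-linked transcripts cannot be told apart. Of all barcode sequences, 1 occurred in more than 1 library (Drop-seq and sNucDrop-seq), and it was not labelled CNT in both. Markers of other cell types were summed in each library to show what else the connecting tubule sums hold. The 12 intercalated cell markers summed to between 3.70 and 4.46% of their level in intercalated cells, the 8 ascending limb markers to between 3.51 and 6.17% of their level in that segment, and the 13 proximal tubule markers to 23.2, 42.0, 26.7 and 7.93% of their level in proximal tubule. The proximal tubule sum was 11450, 9620, 5042 and 1448 CPM in the connecting tubule, against 7493, 8426, 4288 and 1319 CPM in DCT and 14042, 11883, 7744 and 2673 CPM in CD-PC.

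All 4 markers were high in the label they mark. Slc8a1, Calb1 and Klk1 had their highest level in the connecting tubule among the 13 healthy labels in each of the 4 libraries, and S100g did so in 3 of them. Slc8a1 stood at 1466, 18615, 26339 and 37888 CPM in the connecting tubule, against 240.4, 7023, 4475 and 4665 CPM in DCT, the next label in each library, and 42.7, 2045, 942 and 1367 CPM in CD-PC. On the log2 scale the connecting tubule was 2.61, 1.41, 2.56 and 3.02 above DCT, and the smallest of these was 1.41 (95% interval 1.32 to 1.49) in sNucDrop-seq. Calb1 stood at 5636, 1345, 1120 and 1926 CPM, against 1939, 526, 476 and 663 CPM in DCT and 1011, 319.8, 174 and 140.2 CPM in CD-PC. For both genes the order connecting tubule, DCT, CD-PC held in all 4 libraries. For Calb1 the log2 ratio to DCT was 1.54, 1.35, 1.23 and 1.54, the smallest being 1.23 (95% interval 0.94 to 1.53) in DroNc-seq.

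Klk1 and S100g were far more abundant in the cells than in the nuclei. Klk1 had 25914, 469, 387 and 296 CPM in the connecting tubule, against 1310, 82, 37.4 and 63.3 CPM in DCT and 114, 236, 8.72 and 96.4 CPM in CD-PC. Its log2 ratio to DCT was 4.31, 2.52, 3.37 and 2.22. In Drop-seq the next label was IC-A, an intercalated cell label, at 5205 CPM. In 2 nucleus libraries the next label came within counting error, namely podocytes at 339.9 CPM in sNucDrop-seq and endothelial cells at 222 CPM in 10x. Klk1 belongs to a cluster of near-identical kallikrein genes (Klk1b1 and its neighbours), and no source used here says how reads were split among them, so its counts are uncertain. For S100g the gap between cells and nuclei was of the same kind. S100g had 28047, 525, 271 and 166 CPM in the connecting tubule, against 798, 212, 30.6 and 33.5 CPM in DCT and 498, 295, 69.8 and 17.5 CPM in CD-PC. In sNucDrop-seq the descending limb label LH(DL) was higher, at 945 CPM (95% interval 755 to 1168), against 525 CPM (95% interval 439 to 623) in the connecting tubule. In 10x the connecting tubule sum held 32 counts of S100g and the next label, MC, whose meaning the labels do not give, 2, and their intervals overlap.

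**Figure D1:**
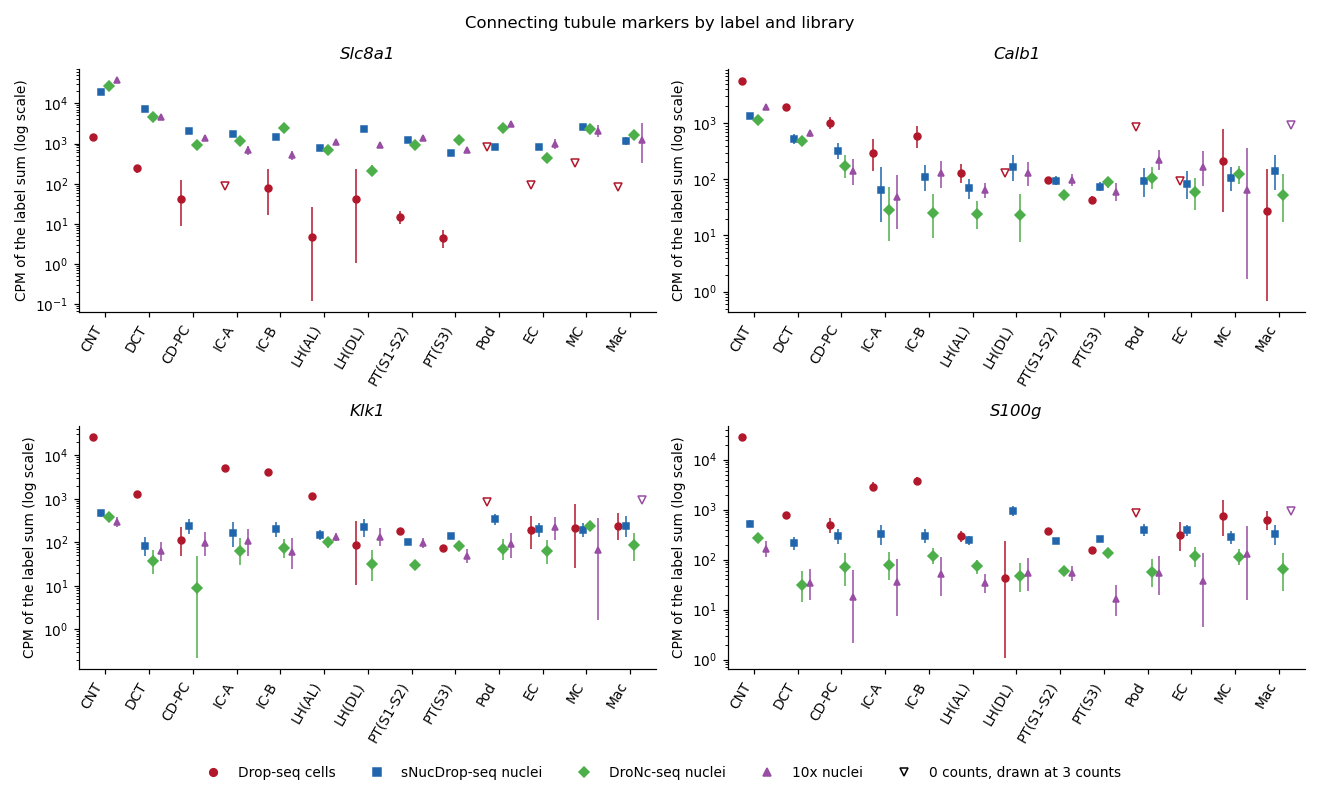
Level of the 4 marker genes (CPM of the summed UMI counts, log axis) in each of the 13 healthy labels, connecting tubule leftmost, with 1 colour per library, bars for the exact Poisson 95% interval and open triangles for a sum of 0 counts drawn at 3 counts. Slc8a1, Calb1 and Klk1 are highest in CNT in all 4 libraries, while S100g in sNucDrop-seq is higher in LH(DL), at 945 CPM, than in CNT, at 525 CPM.

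Nearly all barcodes of the label held at least 1 marker, but single markers varied by library. Every barcode was thinned to 500 UMIs. A UMI of at least 1 of the 4 markers was then held by 99.0, 91.9, 95.7 and 97.8% of connecting tubule barcodes. Proximal tubule barcodes (median 1629, 1179, 1544 and 1491 UMIs) were set beside them as a background, with 11.9, 37.8, 29.3 and 24.1%. The source of marker UMIs in proximal tubule barcodes, free RNA or other, was not tested. Slc8a1 was found in 43.3, 88.8, 92.3 and 97.1% of connecting tubule barcodes at this depth, against 8.9, 70.2, 40.6 and 46.4% in DCT, 0, 44.4, 38 and 39.4% in CD-PC and 0.397, 26.4, 24.1 and 18.4% in proximal tubule. Unthinned, its share in the connecting tubule was 73.2, 96.3, 100 and 98.6%. In nuclei the proximal tubule background of Slc8a1 was thus far from 0. The background of Calb1 was lower. Calb1 was found in 80.4, 41, 30.8 and 47.1%, against 50, 22.1, 15 and 24.9% in DCT, 35.1, 16.7, 10 and 5.77% in CD-PC and 2.38, 3.79, 4.05 and 3.4% in proximal tubule. Of the 4 markers, Klk1 and S100g showed the largest gap between cells and nuclei, Klk1 at 91.8, 25.5, 11.1 and 12.3% and S100g at 95.9, 24.8, 9.4 and 5.8% of connecting tubule barcodes. For S100g in 10x, 5.8% (interval 2.54 to 11.1%) of connecting tubule barcodes and 1.85% (interval 0.96 to 3.21%) of proximal tubule barcodes had overlapping intervals. At 1000 UMIs these shares of S100g were 13.3% (interval 7.26 to 21.6%) and 3.05% (interval 1.72 to 4.98%), and at 300 UMIs 6.47% and 0.709%, with intervals that do not overlap. All 4 markers together were found in 34 of 97, 6 of 161, 0 of 117 and 0 of 138 thinned barcodes, with 1 barcode of the 10x library left out for having under 500 UMIs.

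**Figure D2:**
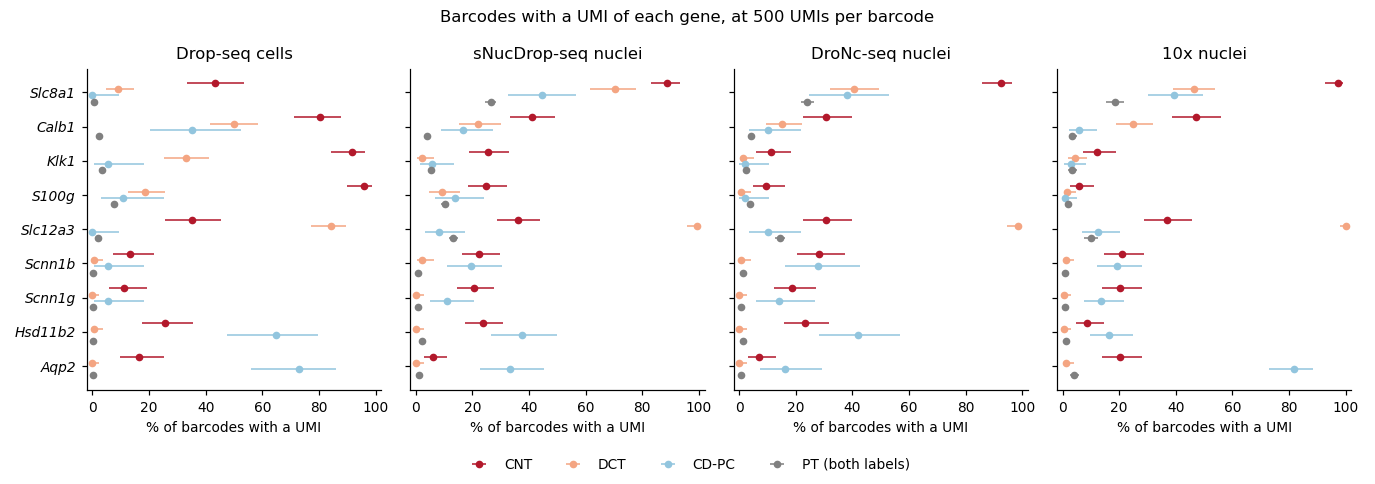
Percent of barcodes with at least 1 UMI of 9 genes after thinning to 500 UMIs, in CNT, DCT, CD-PC and proximal tubule, 1 panel per library, with exact Clopper-Pearson 95% intervals. Slc12a3 was found in 35.1, 36, 30.8 and 37% of CNT barcodes, against 84.2, 99.2, 98.5 and 100% in DCT and 2.12, 13.2, 14.4 and 9.88% in proximal tubule.

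Set against DCT, the connecting tubule had more of Calb1, S100g and Slc8a1, of 2 subunits of the epithelial sodium channel and of Aqp2 and Hsd11b2, genes usually assigned to principal cells. It had less of Slc12a3, the thiazide-sensitive cotransporter, and of the magnesium genes Trpm6, Trpm7 and Egf. A gene was measured where the 2 sums held at least 20 counts, and it was counted as higher or lower where the CPM differed at least 2-fold in that direction in every library. Of 1829 genes measured in all 4 libraries, 26 (1.42%) were higher and 19 (1.04%) lower in the connecting tubule. Among the 26 were Scnn1g, Scnn1b, Slc8a1, Iqgap2, Tmem178, Ptgs1, Hsd11b2, Krt7, Depdc7, Slc2a9, Hes1, Peli2, Arl15, Ntn4, Aif1l, Hif1a, Aqp2, Angpt1, Tpd52l1, Calb1, Klk1, Rhcg, S100g, Egfem1 and AI838599. The 19 were Ppp1r1a, Trpm6, Slc12a3, Fam214a, Sppl2a, Ank2, Egf, Wfdc15b, Uroc1, Trpm7, Larp1b, Lrrc66, Lhx1os, Prkd1, Erbb4, Ptgfr, Cadps2, Lhx1 and Umod. The median log2 ratio over all measured genes was -0.04, 0.04, 0.03 and -0.02, so the sums were centred on each other. Without Drop-seq, the library with the fewest measured genes here, 69 genes were higher and 53 lower than in DCT. Such counts can only rise when fewer libraries are required, and their share of the genes then measured is not given here.

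Against CD-PC, the connecting tubule had more of the calcium genes Slc8a1, Calb1, Vdr and Kl and of Slc12a3 with its regulators Wnk1 and Klhl3, and less of Aqp2, the vasopressin-regulated water channel. Of 887 genes measured in all 4 libraries, 19 (2.14%) were higher and 9 (1.01%) lower in the connecting tubule. Among the 19 were Wnk1, Slc8a1, Slc12a3, Tmem52b, Tmem72, Slc2a9, Vdr, Sgms2, Klhl3, Abca13, Efhd1, Kng1, Calb1, Kl, Defb1, Kng2, Cyp2j11 and AI838599. The 9 were Ahnak, Fxyd4, Mal2, Dab1, Car2, Aqp2, Myh10, Tpm1 and Mgat4c. The median log2 ratio over all measured genes was -0.16, -0.08, -0.07 and -0.06. The 2 comparisons share the connecting tubule sums, so their values are given side by side for each gene and were not counted together. The CD-PC sums are the smaller, with 37 barcodes in Drop-seq, and fewer genes could be measured against them. Without Drop-seq, 39 genes were higher and 34 lower than in CD-PC, and without sNucDrop-seq 16 were lower. These counts, too, can only rise when fewer libraries are required.

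**Figure D3:**
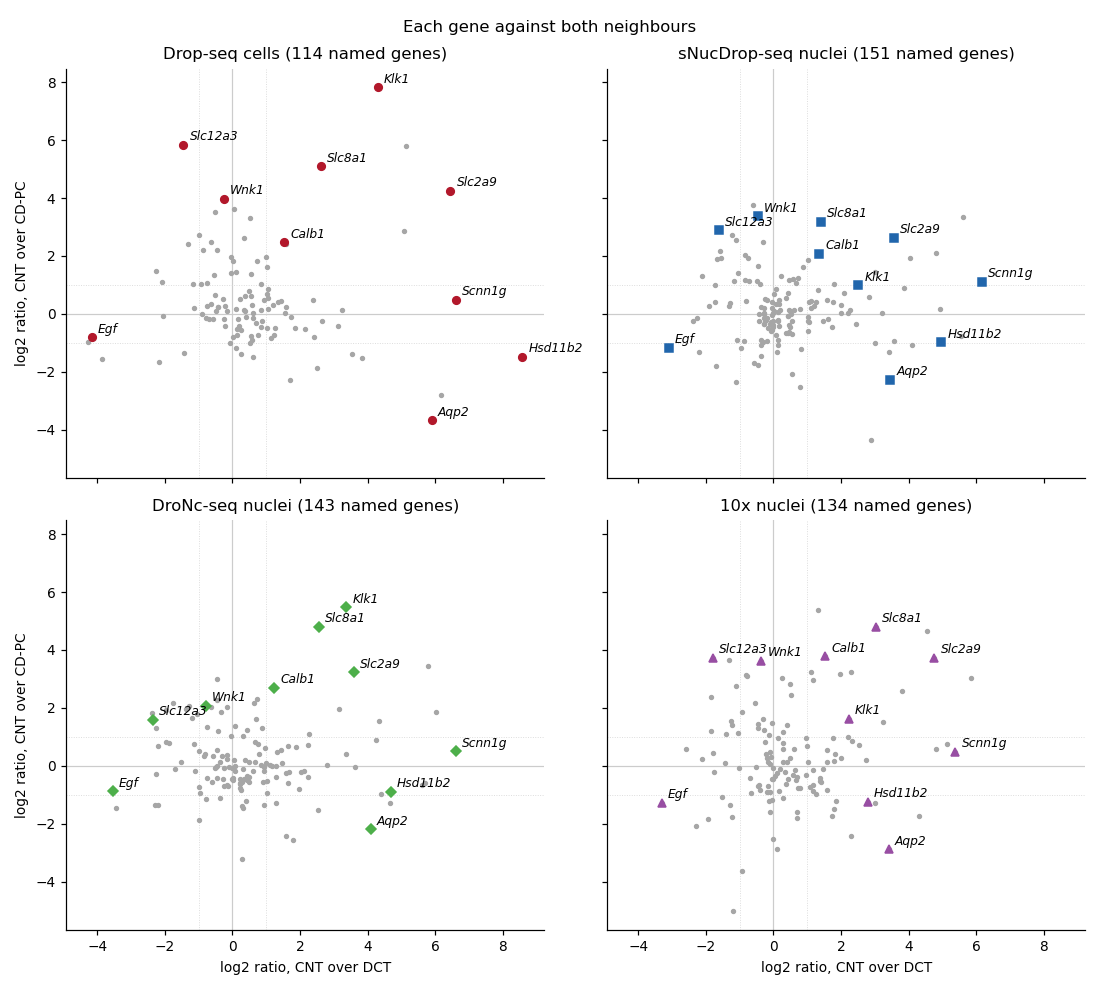
Log2 ratio of CPM, CNT over DCT (x axis) and CNT over CD-PC (y axis), for the named genes measured in both, 1 panel per library, with dotted lines at 2-fold and a gene at 0 counts set at 3 counts. Slc8a1 lies at 2.61, 1.41, 2.56 and 3.02 on the x axis and 5.10, 3.19, 4.81 and 4.79 on the y axis, while Slc12a3 lies left of 0, at -1.45, -1.62, -2.34 and -1.79, and above 0, at 5.85, 2.89, 1.60 and 3.72. The axes share the CNT sums.

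Of the 13 genes listed for calcium transport, 3 of the 8 measured were higher than in DCT (Calb1, S100g and Slc8a1). Against CD-PC, 4 of the 8 measured were higher (Calb1, Slc8a1, Vdr and Kl), and none was lower in either comparison. Over all measured genes, 1.42% were higher than in DCT and 2.14% higher than in CD-PC. Calb1, S100g and Slc8a1 are markers of the label itself. Without them no measured member was higher than in DCT in every library, and Vdr and Kl remained against CD-PC. The medians that follow include these markers. The median log2 ratio of the members measured in each library was 1.06, 0.85, 0.78 and 1.36 to DCT and 1.84, 1.07, 1.63 and 3.17 to CD-PC. Trpv5, the apical calcium channel, had 81.5, 159, 188 and 156 CPM in the connecting tubule, against 3.08, 9.65, 3.4 and 11.2 CPM in DCT and 14.2, 42.1, 17.4 and 0 CPM in CD-PC. Its level was the highest of the 13 labels in each library, and its log2 ratio to DCT was 4.72, 4.04, 5.79 and 3.80, the smallest being 3.80 (95% interval 2.12 to 6.16) in 10x. The intervals are wide because DCT held few counts, and with too few in Drop-seq Trpv5 was not among the genes measured in all 4 libraries. Trpv6, the related calcium channel, gave 2 and 8 counts in the Drop-seq and sNucDrop-seq connecting tubule and was listed at 0 in the DroNc-seq and 10x libraries. Vdr, the vitamin D receptor, had 204, 533, 459 and 1324 CPM, against 123, 386, 282 and 607 CPM in DCT and 57, 236, 148 and 140.2 CPM in CD-PC. Its log2 ratio was 0.72, 0.47, 0.70 and 1.12 to DCT and 1.84, 1.18, 1.63 and 3.24 to CD-PC. Vdr was thus farther above CD-PC than above DCT in each library. Kl encodes klotho, the co-receptor of FGF23 that acts on renal calcium and phosphate handling. Kl had 906, 955, 1192 and 1583 CPM, against 302, 468, 653 and 402 CPM in DCT and 171, 261, 479.6 and 175 CPM in CD-PC, and the connecting tubule was the highest of the 13 labels in each library with intervals clear of DCT. The smallest log2 ratio of Kl to CD-PC was 1.31 (95% interval 0.90 to 1.75) in DroNc-seq.

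Slc12a3, the thiazide-sensitive sodium chloride cotransporter that defines the distal convoluted tubule (chr8:94329109-94366222), was the second highest in the connecting tubule after DCT in all 4 libraries. It had 1639, 5812, 3692 and 3924 CPM in the connecting tubule, against 4476, 17880.1, 18719 and 13544 CPM in DCT and 28.5, 783, 1221 and 298 CPM in CD-PC. The log2 ratio was -1.45, -1.62, -2.34 and -1.79 to DCT and 5.85, 2.89, 1.60 and 3.72 to CD-PC, so the level in the connecting tubule lay between its neighbours in each library. Wnk1, a gene of the WNK kinase pathway that acts on the cotransporter through SPAK, had 2021, 3306, 2609.9 and 5077 CPM, against 2410.4, 4568, 4519 and 6502 CPM in DCT and 128, 319.8, 619 and 412 CPM in CD-PC. These counts are per gene and do not separate transcript forms. The log2 ratio of Wnk1 to CD-PC was 3.98, 3.37, 2.08 and 3.62, whereas to DCT it was -0.25, -0.47, -0.79 and -0.36, under 2-fold in each library. Wnk1 was thus nearer to DCT than to CD-PC. Klhl3, the ubiquitin ligase adaptor that targets WNK kinases, had 153, 649, 603 and 768 CPM, against 382, 1404, 1241 and 1341 CPM in DCT and 28.5, 109, 174 and 87.6 CPM in CD-PC. Of the 8 genes listed for this pathway, 1 of the 6 measured was lower than in DCT (Slc12a3), and 3 of the 4 measured were higher than in CD-PC (Slc12a3, Wnk1 and Klhl3). For all measured genes these shares were 1.04% lower than in DCT and 2.14% higher than in CD-PC. The median log2 ratio of the members measured in each library was -1.35, -0.60, -1.01 and -0.53 to DCT and 2.42, 2.24, 1.60 and 2.37 to CD-PC. Of the 11 distal convoluted tubule markers, 3 of the 9 measured were lower than in DCT (Slc12a3, Trpm6 and Egf) and none higher. Against CD-PC, 5 of the 6 measured were higher (Slc12a3, Klhl3, Wnk1, Sgms2 and Tmem52b) and none lower. The 11 markers together summed to 6960, 12663, 9820 and 13517 CPM in the connecting tubule, which is 53.4, 40.6, 29.0 and 45.6% of their sum in DCT.

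Trpm6, Trpm7 and Egf, genes of magnesium reabsorption, a function of the distal convoluted tubule, were lower in the connecting tubule than in DCT. Of 8 listed, 3 of the 4 measured were lower than in DCT (Trpm6, Trpm7 and Egf) and none higher, while neither of the 2 measured against CD-PC differed 2-fold in every library. Among all measured genes, 1.04% were lower and 1.42% higher than in DCT. The median log2 ratio of the members measured in each library was -2.36, -1.73, -1.98 and -2.58 to DCT. Trpm6, the apical magnesium channel, had 40.7, 458, 349 and 555 CPM in the connecting tubule, against 209.6, 1360.2, 1190.1 and 1371 CPM in DCT and 28.5, 101, 78.5 and 43.8 CPM in CD-PC. Trpm7, its ubiquitous relative, had 214, 708, 685 and 576 CPM, against 909, 2634, 3128 and 3443 CPM in DCT, a log2 ratio of -2.09, -1.90, -2.19 and -2.58. Egf, the precursor of the growth factor that stimulates Trpm6, had 122, 493, 534 and 322 CPM, against 2185, 4211, 6236 and 3156 CPM in DCT and 214, 1111, 985 and 780 CPM in CD-PC. The log2 ratio of Egf to DCT was -4.16, -3.09, -3.54 and -3.29, and Egf was also below CD-PC in each library. Other genes that were high in DCT were likewise low in the connecting tubule. Pvalb, which encodes parvalbumin, a marker of the early distal convoluted tubule, had 5.09, 7.96, 3.42 and 67.5 CPM, against 774, 48.2, 54.4 and 950.1 CPM in DCT. Umod, which encodes uromodulin and is best known from the thick ascending limb, had 102, 87.5, 178 and 109 CPM, against 1486, 400.3, 575 and 219.8 CPM in DCT. Erbb4, a receptor of the EGF receptor family, had 5.09, 330.2, 479.5 and 483 CPM, against 64.7, 1076, 2349.7 and 1833 CPM in DCT.

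**Figure D4:**
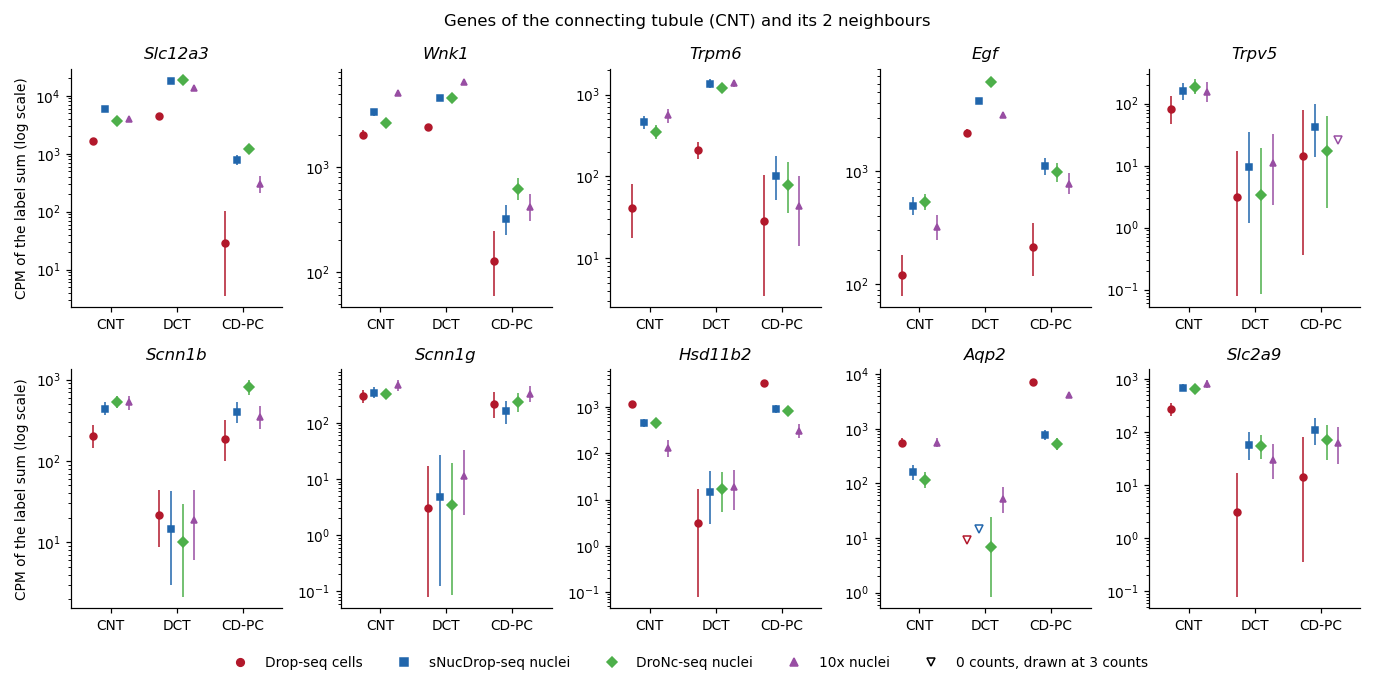
Level of 10 genes (CPM, log axis) in CNT, DCT and CD-PC, with 1 colour per library, exact Poisson 95% intervals and a sum of 0 counts drawn at 3 counts. Slc12a3 in CNT lies between DCT above and CD-PC below, Aqp2 in CNT lies between CD-PC above and DCT below, and Slc2a9 is highest in CNT, at 269.8, 680.3, 654 and 809.8 CPM.

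The epithelial sodium channel set the connecting tubule apart from DCT. Scnn1b, its beta subunit (chr7:121865038-121918728), had 204, 442, 531 and 524 CPM in the connecting tubule, against 21.6, 14.5, 10.2 and 18.6 CPM in DCT and 185, 396, 802 and 351 CPM in CD-PC. Scnn1g, its gamma subunit (chr7:121734420-121768482), had 300.4, 346, 332 and 467 CPM, against 3.08, 4.82, 3.4 and 11.2 CPM in DCT, where the 4 sums held 1, 1, 1 and 3 counts, and 214, 159.9, 235 and 333 CPM in CD-PC. Both subunits were thus low in DCT and at a level near that of CD-PC in the connecting tubule. The log2 ratio to DCT was 3.24, 4.93, 5.70 and 4.82 for Scnn1b, the smallest being 3.24 (95% interval 2.06 to 4.64) in Drop-seq. To CD-PC it was 0.14, 0.16, -0.60 and 0.58 for Scnn1b and 0.49, 1.11, 0.50 and 0.49 for Scnn1g, with the connecting tubule and CD-PC intervals overlapping in 3 of the 4 libraries for each gene. The alpha subunit did not share this gap to DCT. Scnn1a, which encodes it, had 122, 211, 134 and 291 CPM, against 120.2, 101, 95.2 and 149 CPM in DCT and 214, 159.9, 174 and 149 CPM in CD-PC, with a log2 ratio to DCT of 0.02, 1.06, 0.49 and 0.96. Hsd11b2, the enzyme that inactivates glucocorticoids and so leaves the mineralocorticoid receptor to aldosterone, had 1181, 454, 438 and 129.8 CPM, against 3.08, 14.5, 17 and 18.6 CPM in DCT and 3304, 892, 819.7 and 307 CPM in CD-PC. Its level thus lay between DCT and CD-PC in each library. Nr3c2, the mineralocorticoid receptor, had 96.7, 1345, 1606 and 1718 CPM, against 46.2, 617, 833 and 842 CPM in DCT and 85.5, 985, 1639 and 1578 CPM in CD-PC. Of the 11 genes listed for sodium channel and mineralocorticoid action, 3 of the 7 measured were higher than in DCT (Scnn1b, Scnn1g and Hsd11b2) and none was lower. All 3 had few counts in DCT, so they were measured mainly through their connecting tubule counts. None of the 7 measured against CD-PC differed 2-fold in every library. The shares over all measured genes were 1.42% higher and 1.04% lower than in DCT. The median log2 ratio of the members measured in each library was 1.06, 1.12, 0.95 and 1.05 to DCT and -0.05, 0.40, -0.48 and 0.31 to CD-PC.

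Aqp2, the vasopressin-regulated water channel of principal cells (chr15:99579056-99584545), was present in the connecting tubule at a lower level than in CD-PC. It had 555, 159, 117 and 555 CPM in the connecting tubule (109, 40, 34 and 107 counts), against 0, 0, 6.8 and 52.2 CPM in DCT (0, 0, 2 and 14 counts) and 7078, 774, 532 and 4084 CPM in CD-PC. Its log2 ratio to CD-PC was -3.67, -2.28, -2.19 and -2.88, the one nearest to 0 being -2.19 (95% interval -2.84 to -1.56) in DroNc-seq. Against DCT the level was at least 60-fold higher in Drop-seq and at least 11-fold higher in sNucDrop-seq, with the DCT sums of 0 set at 3 counts per library, and the log2 ratio was 4.10 in DroNc-seq and 3.41 in 10x. After thinning, Aqp2 was found in 16.5, 6.21, 6.84 and 20.3% of connecting tubule barcodes, against 73, 33.3, 16 and 81.7% in CD-PC and 0.199, 1.26, 0.685 and 3.86% in proximal tubule. The connecting tubule share lay between those of CD-PC and proximal tubule. Aqp3, a basolateral water channel of the same cells, had 224, 23.9, 20.6 and 0 CPM in the connecting tubule, against 1567, 67.3, 148 and 184 CPM in CD-PC. Fxyd4, which encodes a regulator of the sodium pump found in the collecting duct, had 40.7, 31.8, 58.2 and 46.7 CPM, against 1339, 438, 409.9 and 1674 CPM in CD-PC, a log2 ratio of -5.04, -3.78, -2.81 and -5.16. Aqp4 gave 0 counts in the connecting tubule of 3 libraries, and Avpr2, the vasopressin receptor, gave 0 counts in the connecting tubule, DCT and CD-PC of all 4. The 9 principal cell markers together summed to 2505, 1456, 1497 and 1838 CPM in the connecting tubule, against 33.9, 48.2, 47.6 and 171 CPM in DCT, and this was 17.8, 52.4, 49.0 and 25.1% of their sum in CD-PC. Of these 9, 4 were measured against DCT (Aqp2, Scnn1b, Scnn1g and Hsd11b2), and all 4 were higher. They had few counts in DCT and reached 20 counts mainly through the connecting tubule. Their direction was thus close to fixed by the filter, and the other members did not reach 20 counts in every library. Against CD-PC, 2 of the 5 measured were lower (Aqp2 and Fxyd4). Over all measured genes, 1.42% were higher than in DCT and 1.01% lower than in CD-PC. The part of barcodes that hold RNA of more than 1 cell in these intermediate levels was not tested.

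Slc2a9, which encodes the urate and glucose transporter GLUT9 (chr5:38349272-38503147), was higher in the connecting tubule than in either neighbour. It had 269.8, 680.3, 654 and 809.8 CPM, against 3.08, 57.9, 54.4 and 29.8 CPM in DCT and 14.2, 109, 69.8 and 61.4 CPM in CD-PC, and the next highest label in each library had an interval clear of it. Its log2 ratio was 6.45, 3.56, 3.59 and 4.76 to DCT, the smallest being 3.56 (95% interval 2.71 to 4.54) in sNucDrop-seq, and 4.24, 2.64, 3.23 and 3.72 to CD-PC. The uncharacterised AI838599 had 209, 947, 1226 and 436 CPM, against 6.17, 33.8, 61.2 and 18.6 CPM in DCT and 28.5, 219, 419 and 17.5 CPM in CD-PC. Its ratio to CD-PC ranged from 1.55 in DroNc-seq to 4.64 in 10x on the log2 scale. Some genes were shared with CD-PC rather than with DCT. Rhcg, an ammonia channel of the distal nephron, had 183, 422, 462 and 836 CPM in the connecting tubule, against 89.4, 106, 112 and 302 CPM in DCT and 114, 412, 541 and 894 CPM in CD-PC. Hes1, a transcriptional repressor downstream of Notch, had 259.6, 239, 119.9 and 312 CPM, against 58.6, 33.8, 30.6 and 138 CPM in DCT and 370.3, 159.9, 209 and 342 CPM in CD-PC. Both were above DCT in all 4 libraries, with log2 ratios to CD-PC of 0.69, 0.03, -0.23 and -0.10 for Rhcg and -0.51, 0.58, -0.80 and -0.13 for Hes1. Neither gene had a constant order to CD-PC. Tmem45b, which encodes a membrane protein, had 86.5, 449.5, 497 and 389 CPM, against 3.08, 9.65, 10.2 and 48.4 CPM in DCT. On the CD-PC side, Mgat4c, which encodes a glycosyltransferase, had 10.2, 71.6, 13.7 and 5.19 CPM in the connecting tubule, against 256, 1456, 1805 and 1148 CPM in CD-PC. Car2, the cytosolic carbonic anhydrase, had 219, 119, 95.9 and 36.3 CPM, against 1054, 278, 253 and 167 CPM in CD-PC.

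The kinin system gave further differences from CD-PC. Kng2, a kininogen, the precursor from which kallikrein frees kinin, had 794, 779.7, 781 and 597 CPM, against 1221, 1278, 1316 and 1125 CPM in DCT and 142, 354, 305 and 167 CPM in CD-PC. Kng1, its close paralog, had 199, 131, 99.3 and 109 CPM, against 361, 179, 133 and 149 CPM in DCT and 0, 42.1, 43.6 and 43.8 CPM in CD-PC, and reads may be shared between these 2 genes. Both kininogens thus stood above CD-PC and below DCT in every library. For Kng1 in the nucleus libraries the sums were small, and the connecting tubule interval overlapped those of both neighbours. Of the 7 kallikrein and kinin genes listed, 1 of the 3 measured was higher than in DCT (Klk1) and 2 of the 3 measured were higher than in CD-PC (Kng1 and Kng2). Klk1 is itself a marker of the label. Of all measured genes, 1.42% were higher than in DCT and 2.14% higher than in CD-PC. Among the 10 listed potassium channels, 5 were measured against DCT and 4 against CD-PC, and none differed 2-fold in every library. Kcnj1, the apical potassium channel ROMK, had 580.4, 171, 199 and 472 CPM in the connecting tubule, against 543, 232, 282 and 429 CPM in DCT and 214, 202, 209 and 245 CPM in CD-PC. Kcnj16, a subunit of the basolateral potassium channel, had 1074, 847, 1072 and 1339 CPM, against 601, 762, 871 and 950.1 CPM in DCT and 527, 665, 1151 and 1113 CPM in CD-PC. Kcne1 was too low to be measured in all 4 libraries against either neighbour and was lowest in DCT among the 3 labels. Kcne1, a potassium channel subunit, had 86.5, 79.6, 65.1 and 62.3 CPM in the connecting tubule, against 0, 0, 3.4 and 7.45 CPM in DCT and 285, 101, 34.9 and 61.4 CPM in CD-PC. None of the 9 claudins listed was measured in all 4 libraries against either neighbour.

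Of 32 listed transcription factors, few could be measured against the neighbours, and 1 differed 2-fold in every library. Of the 9 measured against DCT, Lhx1 was lower and none higher, and of the 6 measured against CD-PC none differed 2-fold in every library. Over all measured genes, 1.04% were lower than in DCT and 1.42% higher. Lhx1, a factor of nephron patterning, had 81.5, 255, 212 and 93.4 CPM in the connecting tubule, against 336, 834, 772 and 246 CPM in DCT. Sall3, a zinc finger factor, had 35.6, 67.6, 82.2 and 119 CPM, against 33.9, 183, 187 and 175 CPM in DCT and 0, 0, 26.2 and 0 CPM in CD-PC. Gata2 and Ehf were near 0 in DCT. Gata2, a zinc finger factor needed for collecting duct water handling in mice, had 61.1, 83.5, 127 and 41.5 CPM in the connecting tubule, against 0, 4.82, 0 and 0 CPM in DCT and 171, 177, 131 and 52.6 CPM in CD-PC. Gata2 in the connecting tubule was below its CD-PC level in each library, but the intervals of these labels overlapped in every one, so the order lies within counting error. Ehf, an ETS factor of epithelia, had 132, 115, 85.6 and 77.9 CPM, against 0, 9.65, 3.4 and 0 CPM in DCT and 385, 219, 209 and 228 CPM in CD-PC. Tfcp2l1, a grainyhead-like factor of the collecting duct, had 438, 1090.1, 1004 and 1017 CPM, against 209.6, 531, 520.3 and 391 CPM in DCT and 242, 1187, 1125 and 1455 CPM in CD-PC. It was higher than in DCT in each library, at log2 ratios of 1.06, 1.04, 0.95 and 1.38. Several of these sums hold few counts, down to 7 for Sall3 and 8 for Gata2 in the connecting tubule, and the intervals widen with them.

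The connecting tubule barcodes were not alike in Slc12a3. After thinning to 500 UMIs, 35.1, 36, 30.8 and 37% of them held a Slc12a3 UMI, a share far below that of DCT (84.2, 99.2, 98.5 and 100%) and above that of proximal tubule (2.12, 13.2, 14.4 and 9.88%). At least 3 Slc12a3 UMIs were found in 12.4, 28.6, 23.9 and 27.5% of connecting tubule barcodes, against 35.6, 97.7, 91.7 and 97.2% of DCT and 0.132, 2.25, 2.62 and 2.01% of proximal tubule barcodes. With 1 or 2 UMIs the nucleus libraries held 7.45, 6.84 and 9.42% of connecting tubule barcodes, in the order sNucDrop-seq, DroNc-seq and 10x. The shares of proximal tubule barcodes were 11.0, 11.8 and 7.87%, with overlapping intervals, and the source of their Slc12a3 UMIs was not tested. The barcodes with a Slc12a3 UMI at this depth (34, 58, 36 and 51) were therefore set beside those without one (63, 103, 81 and 87), each summed over all their UMIs. Their median barcode held 1486, 1350, 2129 and 1488 UMIs, against 1795, 1192, 2040 and 1253 UMIs without Slc12a3. The split uses Slc12a3 itself, was chosen after its values were seen and is a description of barcodes within 1 library each.

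Wnk1, Klhl3 and Trpm6, which are among the distal convoluted tubule markers, were higher in the barcodes with Slc12a3. Wnk1 had 3053, 5701, 4141 and 7251 CPM in barcodes with Slc12a3, against 1493, 1639.5, 1830 and 3479 CPM without it. Klhl3 had 256, 1193, 893 and 1308 CPM with it, against 100, 269.9, 455 and 362 CPM without it. Trpm6 had 75.2, 969.5, 639 and 990.4 CPM with it, against 23.1, 101, 202 and 236 CPM without it. For all 3 genes the barcodes with Slc12a3 were higher in each library, with overlapping intervals in Drop-seq for Klhl3 and Trpm6. Of the 4 markers of the connecting tubule, the same barcodes had more of 2, Slc8a1 and Calb1, and less of Klk1 and S100g in each library. Slc8a1 had 2271, 27068, 40904 and 50193 CPM with Slc12a3, against 1054, 12731, 18921 and 28729 CPM without it, and Calb1 had 7987, 1929, 1959 and 2959 CPM, against 4433, 938, 693 and 1169 CPM. In each library the Slc8a1 level of barcodes with Slc12a3 was also above that of DCT, 240.4, 7023, 4475 and 4665 CPM. Scnn1b, Scnn1g, Hsd11b2 and Aqp2 were lower in the barcodes with Slc12a3. These genes were picked from their lists, and the lists as a whole were not counted for the split. Scnn1b had 150.4, 252, 294 and 257 CPM with Slc12a3, against 231, 574, 651 and 716 CPM without it, and Scnn1g had 90.2, 175, 213 and 269 CPM, against 408, 466, 393 and 616 CPM. Hsd11b2 had 45.1, 107, 20.3 and 73.4 CPM with Slc12a3, against 1762, 695, 651 and 172 CPM without it, and Aqp2 had 30.1, 29.1, 0 and 85.6 CPM (2, 3, 0 and 7 counts), against 824, 249.6, 176 and 906 CPM. All 4 genes were lower with Slc12a3 in each library. In Drop-seq, where they lie closest, Scnn1b was 150.4 CPM (interval 72.1 to 277) with Slc12a3 and 231 CPM (interval 156 to 329.6) without it, and these intervals overlap, as do those of Scnn1g in DroNc-seq and Hsd11b2 in 10x. At 500 UMIs, a UMI of Aqp2, Scnn1b, Scnn1g, Hsd11b2 or Fxyd4 was found in 14.7, 25.9, 22.2 and 27.5% of barcodes with Slc12a3, against 66.7, 67, 59.3 and 63.2% of those without it. Other genes differed beyond their intervals in some libraries or in none. Trpv5 had overlapping intervals in each library, with 75.2, 184, 213 and 147 CPM with Slc12a3, against 84.7, 142, 176 and 163 CPM without it. Klk1 had 15778, 301, 203 and 269 CPM with Slc12a3, against 31099.9, 587, 481 and 308 CPM without it. S100g had 23809.5, 504.1, 213.1 and 110 CPM with Slc12a3, against 30214.9, 539.7, 299.8 and 199.3 CPM without it. Both markers were lower with Slc12a3 in each library, with overlapping intervals for Klk1 in 10x and for S100g in the nucleus libraries. Slc34a1, the proximal tubule phosphate cotransporter, had 406, 1997, 1533 and 538 CPM with Slc12a3, against 585, 2179, 956 and 761 CPM without it, in no constant order across libraries. The part of doublets in this split was not tested. No connecting tubule barcode of Drop-seq or 10x held more than 3 times the median UMIs of the label, against 8 in sNucDrop-seq and 6 in DroNc-seq. Such a cut neither finds nor excludes doublets.

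**Figure D5:**
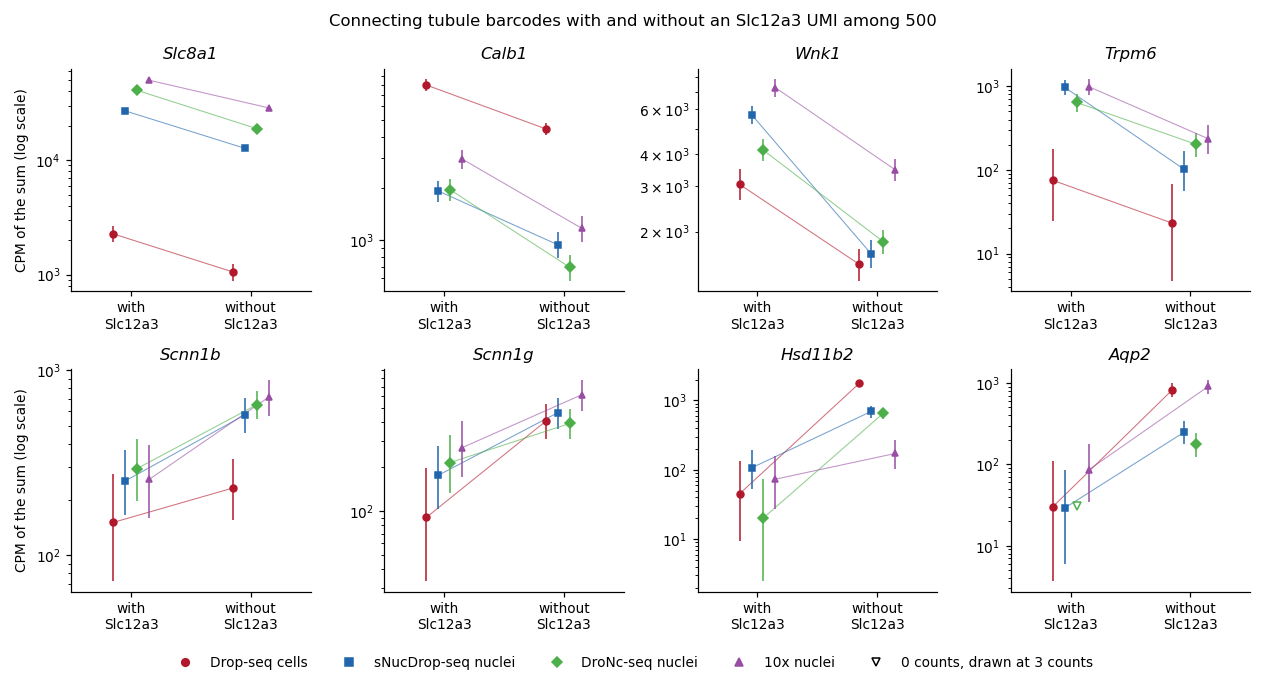
Level of 8 genes (CPM, log axis, exact Poisson 95% intervals) in connecting tubule barcodes with a Slc12a3 UMI among 500 (left) and without one (right), in each library. Slc8a1, Calb1, Wnk1 and Trpm6 are higher with Slc12a3 in all 4 libraries, and Scnn1b, Scnn1g, Hsd11b2 and Aqp2 are lower, Hsd11b2 at 45.1, 107, 20.3 and 73.4 CPM with Slc12a3 and 1762, 695, 651 and 172 CPM without it. The connecting tubule markers Klk1 and S100g, which were lower with Slc12a3 in all 4 libraries, are not drawn.

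Against all other healthy barcodes together, 143 (1.54%) of 9256 genes measured in all 4 libraries were at least 2-fold higher in the connecting tubule in every library and 178 (1.92%) were lower. Without 10x, 269 were higher, and 416 were lower without Drop-seq and 317 without sNucDrop-seq, counts that can only rise when fewer libraries are required. The libraries held 3531, 3011, 2769 and 2084 barcodes, of which 3022, 1821, 1605 and 705 were proximal tubule. The other barcodes were thus a mix that differed by library and was richest in proximal tubule in Drop-seq. Higher and lower here are against that mix and not against each segment. In the calcium list 5 of the 12 measured were higher (Calb1, Slc8a1, Vdr, Kl and Trpv5) and none lower. Calb1 and Slc8a1 are themselves markers of the label. In the sodium channel and mineralocorticoid list 5 of the 11 measured were higher (Scnn1a, Scnn1b, Scnn1g, Nr3c2 and Hsd11b2). Of 25 transcription factors measured, 7 were higher (Tfcp2l1, Gata3, Gata2, Emx1, Tfap2a, Sall3 and Hoxb7) and Hnf4a, a factor of the proximal tubule, was lower. Of 9 potassium channels measured, Kcnj1, Kcnj10 and Kcne1 were higher and Kcnj15 and Kcnk5 lower. Cdh1, which encodes E-cadherin, was the 1 of 6 measured adhesion genes that was higher, and the claudin Cldn10 the 1 of 6 measured that was lower. Phactr1, which encodes a regulator of actin and phosphatase 1, was the highest of the 13 labels in each library, with 316, 3573, 5182 and 6987 CPM in the connecting tubule, against 28.5, 374, 462 and 785 CPM in all other barcodes and 228, 2550, 3331 and 4733 CPM in CD-PC, the next label. Its intervals in the connecting tubule and CD-PC overlapped in Drop-seq. Of 9 intercalated cell markers measured, 1 was higher and 1 lower, and the list had a median log2 ratio of 0.23, -0.60, -0.82 and -1.82. The lower one was Atp6v1g3, a proton pump subunit, with 5.09, 23.9, 13.7 and 10.4 CPM in the connecting tubule, against 42.5, 53.4, 65.0 and 40.7 CPM in the rest. Atp6v1b1, another subunit of that pump, was higher than in the rest at 173, 175, 178 and 202 CPM, against 16.9, 64.9, 56.2 and 83.1 CPM, and stood below the intercalated labels in each library. Of 13 proximal tubule markers 8 were lower, and of 8 ascending limb markers 3 were lower, with Slc12a1, the cotransporter of the ascending limb, at 20.4, 358, 644 and 618 CPM in the connecting tubule, against 261, 2124, 2648 and 4768 CPM in the rest.

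Profiles were compared over genes that averaged 20 CPM or more across the 13 labels, and rho was highest with DCT in each library, though in sNucDrop-seq the ascending limb was nearly level with it. Spearman's rho between the log profiles of the connecting tubule and DCT was 0.826, 0.810, 0.844 and 0.839, over 6031, 8063, 7787 and 7330 genes. With CD-PC it was 0.712, 0.787, 0.799 and 0.767, and with the ascending limb label LH(AL) 0.778, 0.809, 0.834 and 0.813. These are descriptions across genes of sums of unequal depth from the same library. At 500 UMIs the median connecting tubule barcode held 302, 364, 359 and 361 genes, against 317, 350, 345 and 363 in DCT and 344, 382, 377 and 378.5 in CD-PC.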

How the data were processed

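UMI counts per gene and barcode came from the healthy table that the authors deposited, with 19713 genes, and the values are whole numbers. Per the deposited readme, the authors made the counts with the zUMIs pipeline. The submitters' processing notes name STAR 2.5.3a and the mm10 build. The gene annotation, the clustering method and the treatment of intronic reads were not given in the sources used here. Of the columns, 0 belonged to no sample.

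Labels were those of the authors' annotation. Counts were summed per label and library and divided by the sum's total, as CPM, with exact Poisson 95% intervals. Log2 ratios of 2 sums carry exact intervals conditional on their total, and shares carry exact Clopper-Pearson intervals. A sum of 0 was set at 3 counts for a ratio, which is then a bound. All labelled barcodes were kept, and doublets were not called. With 1 library per method there was no test. The members and the 27 gene lists were chosen with earlier results of these data known. Named genes were the 8 highest and 8 lowest per comparison by the interval bound nearest to 0, and per list up to 4 members by level plus members at least 4-fold apart in at least 3 libraries. Some of these, and some genes past 2-fold, are not reported here, and the genes of the Slc12a3 split were chosen after their values were seen. The list symbols absent from the table numbered 3. Sequences and places came from RefSeq on GRCm38.p6.

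As alternatives, sums were scaled by TMM or by the median of ratios, or divided by totals that left out Malat1 or the mitochondrial and ribosomal protein genes. CPM was also averaged over barcodes, and barcodes under 1000 UMIs or above 3 label medians were left out. Minimums of 10 and 50 counts and depths of 300 and 1000 UMIs were tried, and each library was left out once. The ratios were tested on simulated data. The software was Python 3.11.15 (numpy 2.4.6; pandas 2.3.3; scipy 1.17.1; matplotlib 3.10.9) and, for TMM, edgeR 4.0.16 in R 4.3.3.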

Additional observations from a re-analysis of the deposited data

Results flagged for a closer look

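Malat1, a nuclear noncoding RNA, was set apart because its ratio of connecting tubule to DCT had another sign in the cells than in the nuclei. In Drop-seq the log2 ratio was 0.10 (95% interval 0.03 to 0.17), with 13868 CPM in the connecting tubule and 12943 CPM in DCT. In sNucDrop-seq it was -0.19 (95% interval -0.21 to -0.17), in DroNc-seq -0.17 (95% interval -0.19 to -0.15) and in 10x -0.18 (95% interval -0.20 to -0.15). The nucleus libraries held 143092, 173435 and 95092 CPM in the connecting tubule and 163000.1, 195031 and 107427 CPM in DCT. All of these differences are far under 2-fold. The difference between libraries was not tested, and with TMM scaling the Drop-seq value was 0.00.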

How the results depend on the processing

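No paired analysis was possible because each method is 1 library and no test was run. The counts of genes at least 2-fold apart in every library moved with the count minimum, the libraries required, the scaling and the barcodes kept. Each setting kept both directions. A lower minimum or fewer libraries can only raise these counts, and a higher minimum can only lower them. The number of genes measured changes with these settings and is not given here, so the counts are not shares. With a minimum of 10 counts, 44 genes were higher and 38 lower than in DCT, 18 were lower than in CD-PC and 224 were higher than in all other barcodes. With a minimum of 50 counts these were 8, 10, 2 and 89. With a mean of CPM over barcodes, 268 genes were lower than in all other barcodes, against 178 in the main setting. That count was 227 with TMM, 149 with the median of ratios and 150 with totals that left out Malat1. It was 232 without barcodes above 3 label medians, and 160 of the 178 were among these. Leaving out each library gave 29 to 69 genes higher and 20 to 53 lower than in DCT, 21 to 39 higher and 9 to 34 lower than in CD-PC, and 168 to 269 higher and 238 to 416 lower than in all other barcodes. The highest of each range came without Drop-seq, except the 269, which came without 10x. Without sNucDrop-seq, 16 genes were lower than in CD-PC and 317 lower than in all other barcodes. For single genes and shares, 9607 of 9856 results kept their direction and size class, 247 moved and 2 reversed. The 9607 include 1119 results at a minimum of 10 counts and 944 at 50. Those could not move, because the minimum does not alter a ratio, so the total overstates how stable the results were. Of the 16 marker shares, 8 moved when thinned to 300 UMIs and 13 when thinned to 1000. Btg2 over all other barcodes in sNucDrop-seq was 1.02 on the log2 scale and -0.026 among barcodes of at least 1000 UMIs. Slc34a1 over CD-PC in 10x was -1.11 and became 0.13 without barcodes above 3 label medians. The cause was not tested. TMM scaling moved all log2 ratios to CD-PC by 0.39, 0.20, 0.18 and 0.22 in the 4 libraries, and 23 of the 26 genes higher than in DCT were also higher with it. Depth limits the CD-PC comparison most, with 37 barcodes in Drop-seq, and limits S100g, Trpv5 and the transcription factors.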

Other observations

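Further single genes of the connecting tubule, chosen after their values were seen, differed between the cells and the nuclei. Fos, an immediate early gene, had 122 CPM in the connecting tubule of Drop-seq, against 21.6 CPM in DCT and 442 CPM in CD-PC, and was listed at 0 in these labels of the 3 nucleus libraries. Jun, its partner in the AP-1 factor, gave 28, 2, 1 and 0 counts in the connecting tubule. Of the 17 immediate early genes listed, 6 were measured against all other barcodes in all 4 libraries and none was at least 2-fold apart in every one. Atp1b1, the beta subunit of the sodium pump, had 8609, 1365, 1147 and 312 CPM in the connecting tubule, with the highest level in the cells. Slc8a1 and Phactr1 had the opposite order, with 1466, 18615, 26339 and 37888 CPM for Slc8a1 and 316, 3573, 5182 and 6987 CPM for Phactr1. Within 1 gene this is a difference between libraries made by different methods.

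Frmpd4, a scaffold protein gene, had 35.6, 668, 863 and 1339 CPM in the connecting tubule, against 24.7, 62.7, 40.8 and 67.1 CPM in DCT. A4galt, a glycolipid galactosyltransferase gene, had 30.6, 283, 209 and 529.5 CPM in the connecting tubule, against 0, 19.3, 20.4 and 14.9 CPM in DCT. In Drop-seq the sum of 0 counts in DCT allows no more than the bound that A4galt was at least 3.3-fold higher in the connecting tubule. Sgms2, a sphingomyelin synthase gene listed with the distal convoluted tubule markers, had 351, 330.2, 209 and 1355 CPM in the connecting tubule, against 339, 405, 286 and 1144 CPM in DCT and 28.5, 58.9, 26.2 and 167 CPM in CD-PC. Tmem52b, a membrane protein gene of the same list, had 2449, 1241, 1541 and 571 CPM, against 1914, 670.4, 989.5 and 399 CPM in DCT and 399, 404, 340.1 and 105 CPM in CD-PC. Tmem52b was thus above both neighbours in each library.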
